A study of Caenorhabditis elegans with 2 samples.

Results

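The histone genes of Caenorhabditis elegans were examined for peaks of NHR-120, a nuclear hormone receptor, in whole young adult worms. The members are the protein-coding genes of the WBcel235 annotation (Ensembl) whose symbol starts with his- and a number. They number 72 of 19973 protein-coding genes. For each, the strongest ranked peak with its summit within 1 kb of a transcript start was taken, a choice that used no comparison between samples. Chromatin was immunoprecipitated with an anti-GFP antibody from strain OP415, which carries the integrated fosmid transgene wgIs415, with nhr-120 fused to TY1, EGFP and 3xFLAG tags and with unc-119(+), together with the mutation unc-119(tm4063). The transgene is thus an added copy of nhr-120, and the peaks are those of the tagged protein summed over all tissues of the worm. There is 1 group of 2 biological replicates, both collected at 64 hours after starvation of L1 larvae, so no conditions were contrasted and the results below are descriptions without a test. The possible control experiment that the labels name was not analysed here. The lists hold no counts, so the depth of sequencing is unknown.

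Histones package DNA into nucleosomes, each an octamer of the core histones H2A, H2B, H3 and H4, while the linker histone H1 binds between nucleosomes. In this worm, most core histone genes are short, lack introns and lie in clusters of head-to-head pairs, in which an H2A gene and an H2B gene, or an H3 gene and an H4 gene, are transcribed away from a shared spacer. Their mRNAs are made mainly in S phase and end in a stem-loop instead of a poly(A) tail. Replacement histones such as H3.3 are also made outside S phase, often from genes with introns. Many copies are nearly identical in sequence.

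The sequences that carry the results are given from the RefSeq copy of WBcel235 (ce11), all on chromosome V and on the plus strand, 5′ to 3′. The first is the part of the strongest histone peak that lies before the H4 gene his-37 (chrV:9546882-9547104). Its capitals mark the words GGGACACA and TATAAA on either strand.
his-37 peak before the gene: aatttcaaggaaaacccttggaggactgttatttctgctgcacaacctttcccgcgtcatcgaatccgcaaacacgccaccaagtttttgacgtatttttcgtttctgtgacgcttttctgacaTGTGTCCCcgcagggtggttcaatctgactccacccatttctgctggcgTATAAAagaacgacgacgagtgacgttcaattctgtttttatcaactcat
The second is the part of the peak at his-1 (H4) and his-2 (H3) that lies within his-1 (chrV:16042614-16042831). The third is the peak with its summit between his-5 (H4) and his-6 (H3) (chrV:8534911-8535174), whose left end covers the first part of his-6. In these, capitals mark every base that lies in a 30-base word with another copy in the genome, which is 204 of the 218 bases of the former and 188 of the 264 bases of the latter.
his-1 part of the his-1/his-2 peak: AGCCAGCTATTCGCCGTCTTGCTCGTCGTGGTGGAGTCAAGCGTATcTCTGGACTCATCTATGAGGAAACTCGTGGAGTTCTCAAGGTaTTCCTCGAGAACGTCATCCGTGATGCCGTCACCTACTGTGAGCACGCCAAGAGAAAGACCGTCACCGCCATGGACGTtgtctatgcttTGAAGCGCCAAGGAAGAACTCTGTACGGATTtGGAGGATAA
his-5/his-6 peak: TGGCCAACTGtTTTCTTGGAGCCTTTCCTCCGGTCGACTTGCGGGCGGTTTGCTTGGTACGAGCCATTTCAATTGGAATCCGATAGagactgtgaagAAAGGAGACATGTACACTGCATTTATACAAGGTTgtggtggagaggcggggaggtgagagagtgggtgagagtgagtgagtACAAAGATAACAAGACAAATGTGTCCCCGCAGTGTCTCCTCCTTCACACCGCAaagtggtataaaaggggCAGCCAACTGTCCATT
The last pair sets a spacer that has an identical copy elsewhere, between his-50 (H4) and his-49 (H3) (chrV:8847705-8847942), beside a spacer of the same kind in single copy, between his-2 and his-1 (chrV:16042284-16042519). Capitals again mark GGGACACA and TATAAA on either strand.
his-50/his-49 spacer: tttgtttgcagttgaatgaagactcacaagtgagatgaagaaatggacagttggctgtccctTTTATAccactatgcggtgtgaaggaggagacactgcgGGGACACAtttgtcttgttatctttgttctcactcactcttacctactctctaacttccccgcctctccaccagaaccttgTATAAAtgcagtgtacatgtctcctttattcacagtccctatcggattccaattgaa
his-2/his-1 spacer: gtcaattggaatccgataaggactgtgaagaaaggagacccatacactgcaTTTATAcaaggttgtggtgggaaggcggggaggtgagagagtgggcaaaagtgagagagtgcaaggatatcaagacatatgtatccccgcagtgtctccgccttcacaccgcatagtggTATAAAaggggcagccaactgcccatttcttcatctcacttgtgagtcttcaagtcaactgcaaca

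Few histone genes had a peak at the authors' threshold, and those that did were H3 or H4 genes. Most H3 and H4 genes stand in close pairs, so a peak at such a pair counts for both types. Within 1 kb of a start, 3 of the 72 genes (4.17%) had a summit of the main thresholded list of 610 peaks, against 1.72% of all protein-coding genes. These were his-37, his-1 and his-2, and they rest on 2 distinct peaks because his-1 and his-2 share one. The conservative list of 555 peaks had 5 of the 72 (6.94%), against 1.55% of all protein-coding genes, adding his-5 and his-6 through 1 further shared peak. With counts of 2 and 3 distinct peaks, these shares give no firm difference from the background. Widening the window to 2 kb raised the counts to 6 and 11 genes, while the distinct peaks of the main list stayed at 2. No share of all protein-coding genes at 2 kb stands beside these counts, so they show no added binding. None of the 72 had a summit in the list thresholded within replicate 1 (0.225% of all protein-coding genes) or within replicate 2 (0.24%).

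In the ranked list of 115573 candidate peaks, which includes many weak ones, 50 of the 72 genes (69.4%) had a summit within 1 kb, below the 89.1% of all protein-coding genes. The 50 genes had 31 distinct strongest peaks, and 19 of these peaks were the strongest of more than 1 histone gene. The signal below is the authors' value per peak, on a scale that is not given in the sources used here, and the percentage of ranked peaks with a higher signal is given beside it. Over the 50 genes the median signal was 43.05 (quartiles 32.68 and 51.69, range 8.75 to 81.07). Counting each peak once gave 43.76. Across the 17792 protein-coding genes with a ranked summit, the median was 34.43 (quartiles 26.49 and 43.26), and 74.4% of their strongest peaks lay below the histone median. By their median, histone genes with a summit thus sat in the upper part of the range of coding genes, well under the median of 78.7 in the main thresholded list. Their lower quartile was under the coding median. With each peak given only to its nearest start, the histone median was 36.17. The 31 histone peaks also had more G and C, with a median of 47.35% against 39.39% for the strongest peaks of coding genes and 45.27% for the thresholded peaks, and the part of base composition in their signal was not tested.

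**Figure D1:**
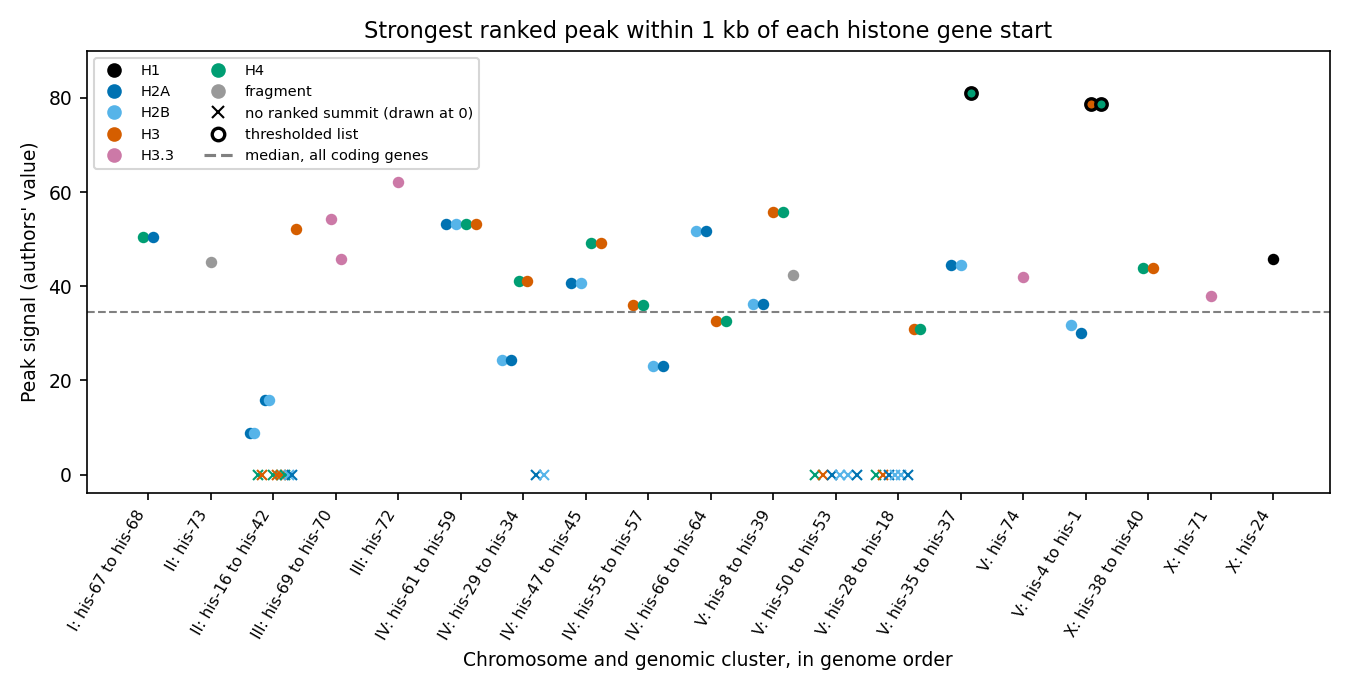
Strongest ranked peak within 1 kb of the start of each of the 72 histone genes, as the authors' signal (vertical axis), by chromosome and cluster in genome order (horizontal axis) and coloured by histone type. Crosses at 0 are the 22 genes with no ranked summit, ringed points are the 3 genes with a thresholded summit (78.63 and 81.07), and the dashed line is the median of all protein-coding genes (34.43).

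The strongest histone peak belonged to his-37, an H4 gene that has 2 exons and stands beside the pair his-35 (H2A) and his-41 (H2B). Its peak (chrV:9546882-9547145) had a signal of 81.07, and 0.305% of ranked peaks were higher. Like the other strongest histone peaks, it is 264 bases long with its summit at the middle. Summit positions here are thus those of the centre of the interval. The summit lay 91 bp before the transcript start of his-37, between protein-coding genes, so the peak covers the promoter printed above. The overlapping peak in the list of replicate 1 had a signal of 44.43, with 0.535% of that replicate's peaks higher, and the one of replicate 2 had 42.33, with 0.937% higher. Both replicates thus placed it in the top 1% of their own lists. The global irreproducible discovery rate (IDR), which measures how well a peak's rank repeats between the lists compared, was 0.00222. The authors' −log10 q was 0.840. None of the 235 words of 30 bases in the his-37 peak occurred elsewhere in the genome. Among the 610 main peaks, 348 had a lower signal.

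The second listed peak covered his-1 (H4), which shares a spacer with his-2 (H3), in a cluster of 4 genes with his-3 (H2A) and his-4 (H2B). The peak (chrV:16042614-16042877) had a signal of 78.63, with 0.353% of ranked peaks higher, and a global IDR of 0.00704. Unlike the his-37 peak, it lay over the gene and not before it: the summit was 226 bp past the start of his-1, in the coding sequence, and 463 bp before the start of his-2. The replicates had 38.64 and 44.36, higher than all but 1.1% and 0.733% of their peaks. Of its 235 words, 79 occurred elsewhere (33.6%), and all 146 other copies lay in 9 other histone genes, with his-38, the H4 gene on chromosome X, holding 38 of these words. Part of the printed sequence is therefore common to other histone genes. With words of 50 bases the repeated share was 4.65%.

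The peak at his-6 and his-5 was in the conservative list alone. It (chrV:8534911-8535174) had a signal of 55.73, with 2.34% of ranked peaks higher, and 33.50 and 36.15 in replicates 1 and 2. Its summit lay in the spacer, 66 bp before his-6 and 171 bp before his-5, while its left end covered the first part of his-6. The global IDR was 0.0187 in the ranked list used here and 0.00858 in the authors' other joint ranked list, on either side of the threshold of 0.01 that the 2 thresholded lists show. Of its 235 words, 75 were repeated (31.9%), and 140 of their 227 other copies lay in 5 other histone genes, with 46 copies each in the H3 genes his-17, his-27 and his-49.

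By signal, the histone peaks closest under the main list were those of his-72 (62.10) and of his-5 and his-6 (55.73), while those inside it were at 78.63 and 81.07. Signal alone did not separate them, since 49 of the 610 main peaks had a lower signal than the his-72 peak.

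**Figure D2:**
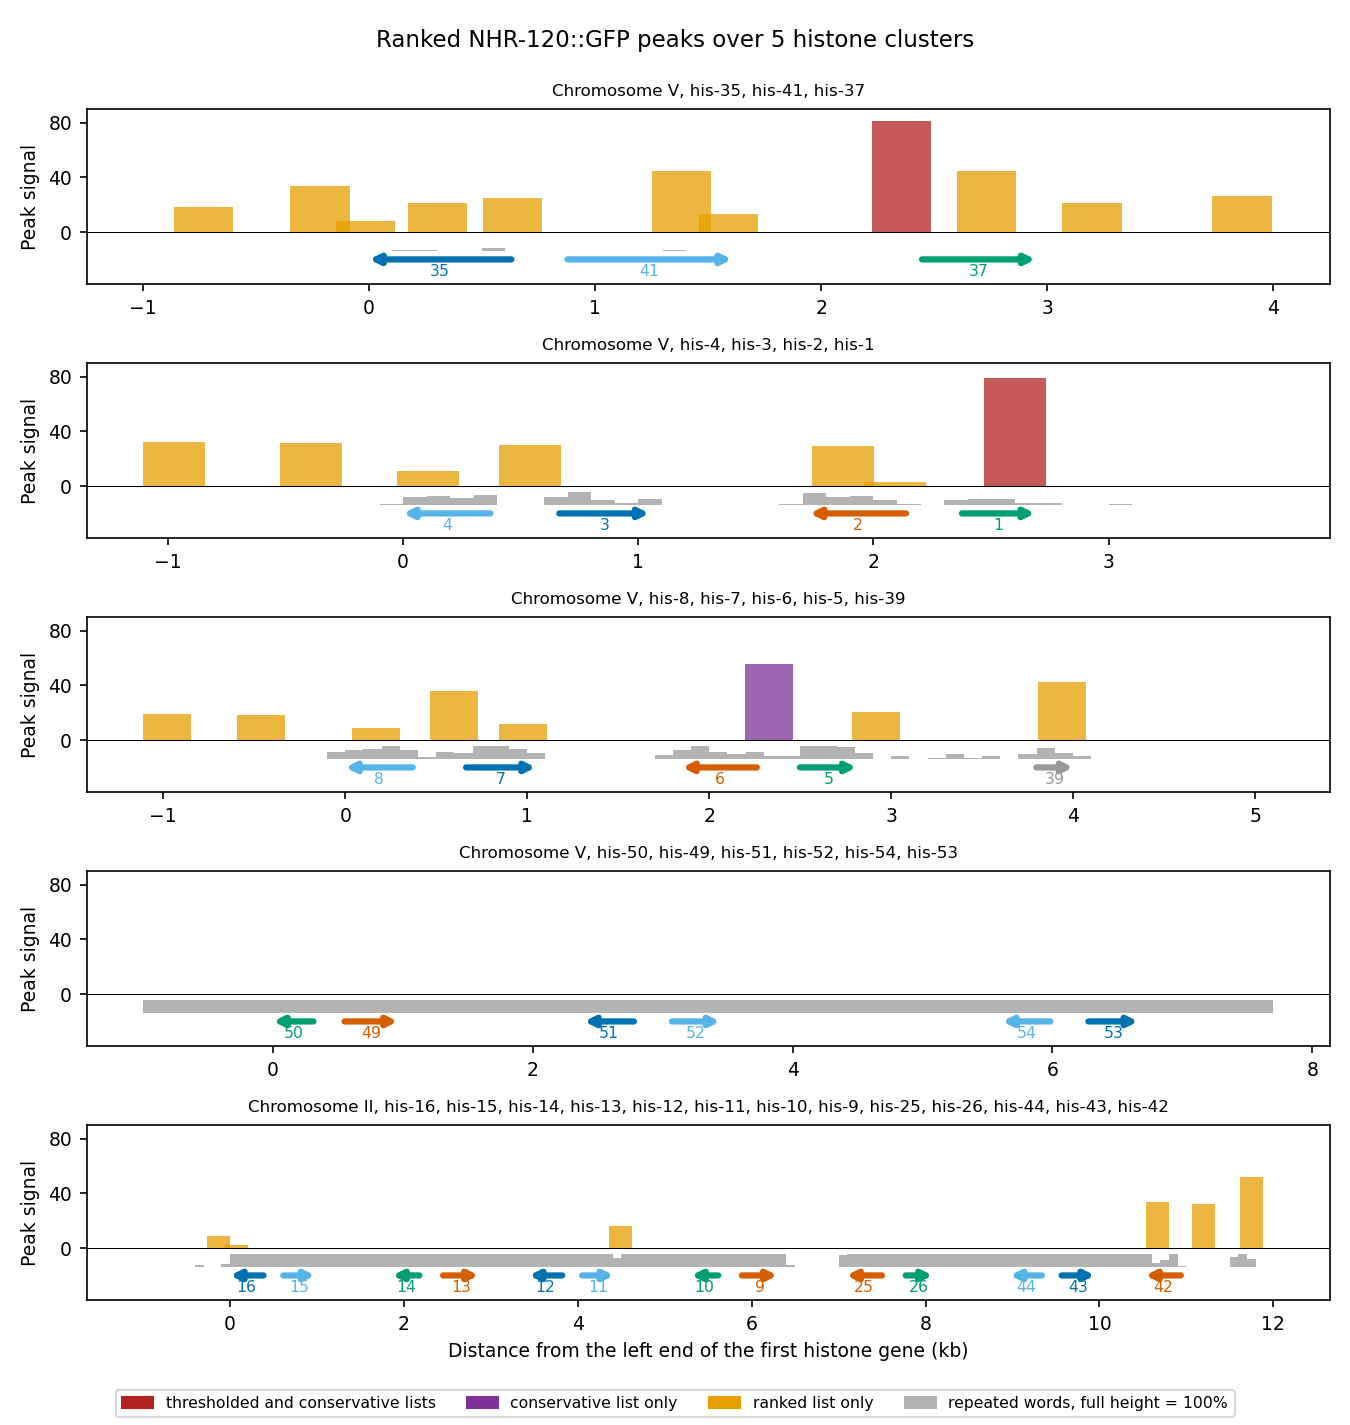
Ranked peaks over 5 histone clusters, with the authors' signal as height, against distance in kb from the left end of the first histone gene. Arrows are the histone genes by his- number and direction, coloured by type as in the plot of signal by cluster, and grey bars give the share of repeated 30-base words. Of the 2 thresholded peaks, one lies mostly before his-37 and the other over his-1, while the fully repeated cluster from his-50 to his-53 has no peak.

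Among the H4 genes, 11 of 16 had a ranked summit, with a median of 49.22 and a range from 30.90 at his-18 to 81.07 at his-37. The H3 genes had 10 of 15, with a median of 46.49, from 30.90 at his-17 to 78.63 at his-2. Both types largely share values because 9 of their 14 head-to-head pairs share the strongest peak. The next H3 and H4 peaks after those listed were at his-60 and his-59 (53.20, coding sequence of his-59; 29.56 and 32.27 in the replicates), his-42 (52.08), his-67 (50.47), and his-46 and his-45 (49.22, seen in replicate 2 alone at 32.61). The other H3 and H4 pairs, his-38 with his-40 (43.76), his-31 with his-32 (41.14), his-55 with his-56 (35.92), his-63 with his-64 (32.68) and his-17 with his-18 (30.90), ran from just under the median of coding genes to just over their upper quartile.

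By their medians, the H2A and H2B genes were lower than the H3 and H4 genes. Of the H2A genes 11 of 17 had a ranked summit, with a median of 36.17. Of the H2B genes 10 of 16 had one, with a median of 33.93, close to the 34.43 of all coding genes. These medians hold the weak peaks of his-16 with his-15 (8.75), his-12 with his-11 (15.92) and his-29 with his-30 (24.34). The first 2 of these stand in the chromosome II cluster. There, the H3 and H4 pairs his-14/his-13, his-10/his-9 and his-25/his-26 had no ranked summit and entered no median. Nor did the H2A and H2B pair his-44/his-43. The part of such missing genes in the difference between types was not tested. Neither H2A nor H2B had a gene with a summit of the main or the conservative list within 1 kb. Of all protein-coding genes, 1.72% and 1.55% had one, so the absence in so few genes gives no firm difference. Within 2 kb the main list reached his-3, his-35 and his-41, and the conservative list these and his-7 and his-8. The highest peak of both was the one in the coding sequence of his-61 (H2A), shared with his-62 (H2B), at 53.15. There the replicates differed: the overlapping peak ranked 950 of 60719 in replicate 1 (36.47) and 17711 of 58785 in replicate 2 (21.29). The peak of his-66 and his-65 came next (51.69), then the one of his-68 (50.47), which is shared with the H4 gene his-67 on chromosome I and also differed, with 36.25 in replicate 1 and 19.10 in replicate 2. The lowest was that of his-16 and his-15, at 8.75, with 89% of ranked peaks higher, and its summit lay in an exon of the neighbouring gene ZK131.11. The pair his-35 and his-41, each with 2 exons and an annotated 5′ UTR, had a peak of 44.48 in the coding sequence of his-41, and 23.59 and 20.25 in the replicates.

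All 5 genes for H3.3 or an H3.3-like protein had a ranked summit, and none was in a thresholded list. Of all protein-coding genes, 89.1% had a ranked summit and 1.72% a summit of the main list. With 5 genes, these counts give no firm difference. The highest of the H3.3 genes was his-72 (62.10, global IDR 0.115), one of the main H3.3 genes of the worm, with replicate values of 25.85 and 34.21. Its summit was 324 bp before a transcript start and in an intron of another his-72 transcript, and the short RNA gene Y49E10.36 starts within 1 kb. The others were his-69 (54.36), his-70 (45.67), his-74 (42.02, replicate 2 alone) and his-71 (37.88), so all 5 were above the median of coding genes. The other main H3.3 gene, his-71, had 15.05 and 19.79 in the replicates with a summit 6 bp before its start. The single his- gene for linker histone H1, his-24, had a peak of 45.83 in its coding sequence, 127 bp past the start, with 23.09 and 26.85 in the replicates. The remaining genes, his-73 (45.21) and his-39 (42.34), are annotated by RefSeq only as proteins with a core histone domain, and their values were close to the histone median. The his-73 summit lay in an exon of the neighbouring gene W09H1.4, and the microRNA gene mir-4933 starts within 1 kb of it. The H3.3, H1 and his-37 regions hold little repeated sequence, at most 8.42% of the 30-base words within 1 kb of a start.

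The replicates were compared through the ranked peaks of each replicate that overlap a joint peak by at least 1 bp. Of the 31 distinct histone peaks, 21 (67.7%) were overlapped in both replicates, against 42.4% of the 16081 distinct strongest peaks of coding genes. The 2 sets also differ in joint signal, with medians of 43.76 and 34.06, and the part of signal in this overlap was not tested. A further 8 histone peaks were overlapped in replicate 2 alone, none in replicate 1 alone, and 2 in neither. The latter are the weak peaks of his-16 with his-15 and of his-12 with his-11, so they rest on the joint list alone. The overlapping peaks had medians of 24.43 in replicate 1 (range 9.78 to 44.43) and 24.28 in replicate 2 (range 14.21 to 44.36), where all ranked peaks of these replicates had medians of 16.73 and 17.41. In both replicates the highest values belonged to his-37 and to his-1 with his-2, in opposite order.

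**Figure D3:**
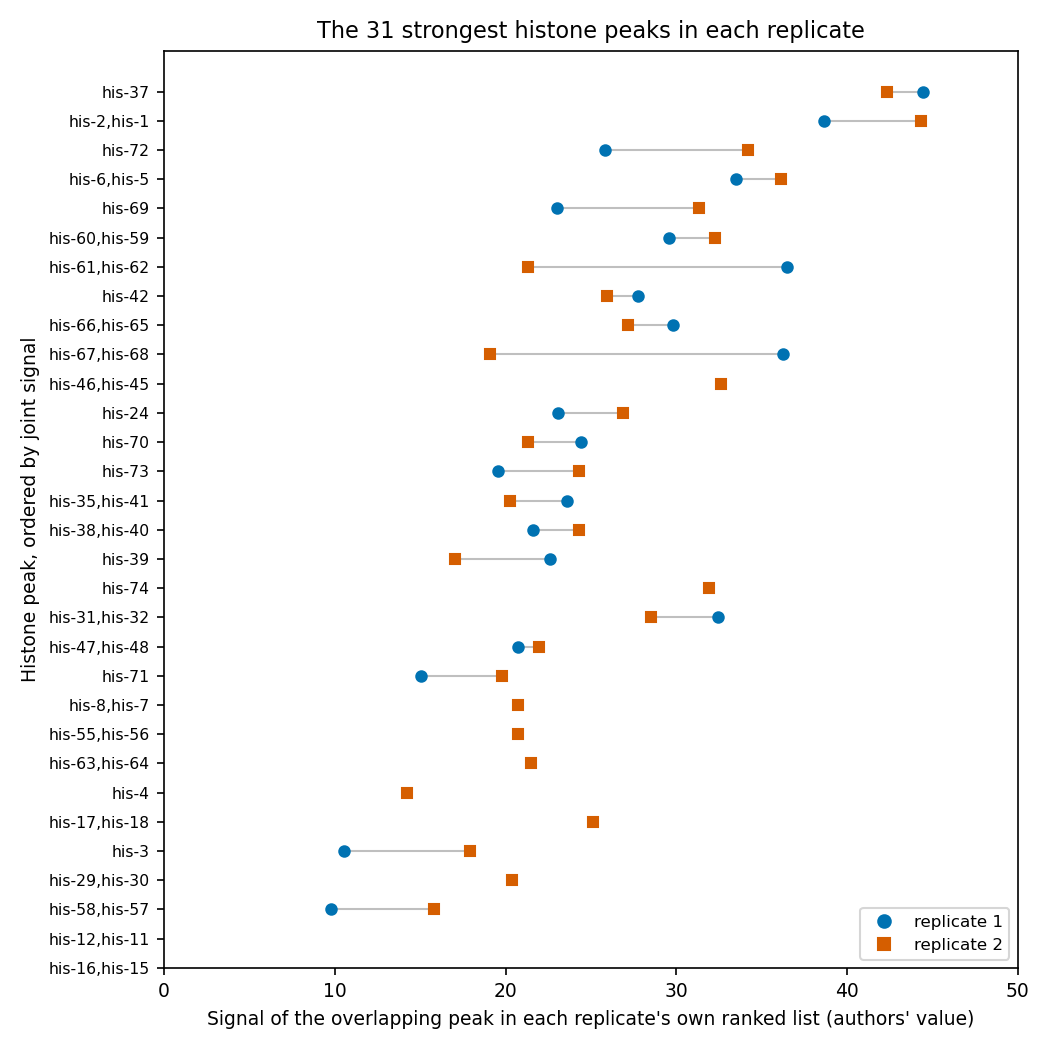
Signal of the peak overlapping each of the 31 distinct histone peaks in the ranked list of replicate 1 (circles) and replicate 2 (squares), on the authors' scale, with peaks ordered by joint signal. A missing symbol means no overlapping ranked peak: 21 peaks have both symbols, 8 have replicate 2 alone and the lowest 2 have none.

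The genes without a peak were gathered in 4 clusters. With a gap of at most 10 kb between starts, the 72 genes fell into 14 clusters of 2 or more genes, holding 67 genes, and 5 single genes. The 22 genes with no ranked summit comprised 8 of the 13 genes of the largest cluster (his-16 to his-42, chromosome II), 2 of 6 in the cluster from his-29 to his-34 (chromosome IV), all 6 from his-50 to his-53 and 6 of 8 from his-28 to his-18 (both chromosome V). Every other cluster had a summit at each of its genes. The gene types were about equally represented: 6 H2A, 6 H2B, 5 H3 and 5 H4 genes lacked a summit.

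Repeated sequence moved with the missing summits, though not at every cluster. By the share of repeated words in the region with 1 kb on either side, 3 of these 4 clusters were the most repetitive, but the cluster from his-29 to his-34 (51.3%) was under those of his-47 to his-45 (60.1%) and of his-55 to his-57 (52.1%), which had a summit at every gene. Within 1 kb of a start, the share of 30-base words with another copy in the genome ranged from 74.04% to 100% (median 100%) at the 22 genes without a summit and from 0.152% to 98.48% (median 32.51%) at the 50 with one, where the median of all coding genes was 0.101%. All 30 histone genes with at most 50% repeated words had a ranked summit, against 90% of such coding genes. Of the 42 with more than 50%, 20 had one (47.6%), against 55.5% of coding genes that repetitive. Above 90% repeated words, 2 of 19 histone genes (10.5%) and 16.9% of coding genes had one. The class above 90% lies within the class above 50%, the coding genes include the histone genes, and histone genes of a cluster share peaks and sequence. With these counts, the shares give no firm difference from coding genes. Base composition within 1 kb was alike, with a median of 42.2% G and C without a summit and 42.28% with one. Reads from identical copies cannot be told apart by sequence, how they were assigned is not given in the sources used here, and the part this has in the missing summits was not tested.

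The extreme was the cluster from his-50 to his-53. Its 8661 bp, with 1 kb on either side, consist wholly of words found elsewhere, even at 100 bases, and hold no summit in either joint ranked list or in either replicate's ranked list. The region from his-28 to his-18 (91.2% repeated) had 0.362 ranked summits per kb and the chromosome II cluster (80.9%) had 0.464, against 1.15 per kb of the nuclear genome. In the chromosome II cluster the summits stood mostly at its edges, with his-42 (52.08) on the right, 815 bp before the gene and near the short RNA gene F08G2.10. The other 16 regions, with up to 60.1% repeated words, had 0.744 to 2.22 summits per kb, the highest being that of his-35, his-41 and his-37 with 1.16% repeated words. The peaks themselves had a median repeated share of 31.9%, against 0 for all ranked peaks, and 8 of the 31 had no repeated word. For words of 50 and 100 bases this median was 11.2% and 0.

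**Figure D4:**
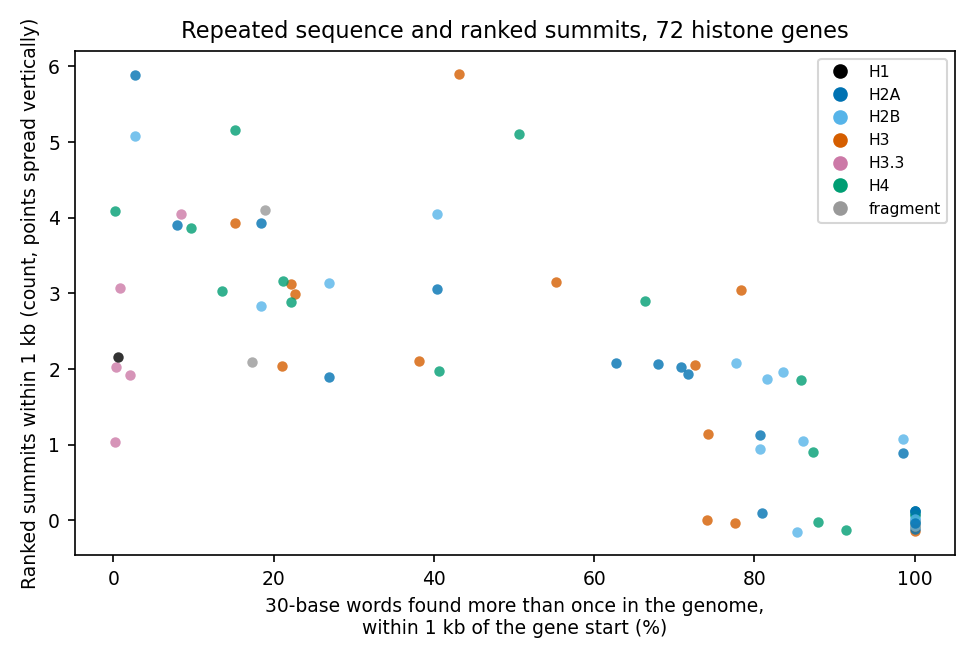
Number of ranked summits within 1 kb of the start (vertical axis, points spread slightly to separate them) against the share of 30-base words within 1 kb that occur more than once in the genome (horizontal axis), for the 72 histone genes by type. All genes at or below 50% have at least 1 summit, and the genes at 100% have none.

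The head-to-head pairs set where peaks can be shared. There were 31 such pairs: 16 of H2A with H2B, 14 of H3 with H4 and 1 of H2A with H4, with spacers of 227 to 368 bp (median 258 bp). As each spacer is shorter than the 1 kb window, both genes of a pair usually see the same peaks. In 19 pairs both genes had the same strongest peak, in 11 neither had one, and in the remaining pair, his-4 and his-3, each had its own (31.69 and 29.96). A ranked summit lay inside the spacer in 6 pairs: his-67/his-68, his-8/his-7, his-6/his-5, his-17/his-18, his-35/his-41 and his-4/his-3. The nuclear genome had 1.15 ranked summits per kb, and the spacers are short. Whether 6 is more or fewer than this density gives was not tested. The 31 spacers comprise 21 different sequences. That of his-50 and his-49 is identical to that of his-28 and his-27, and 1 sequence serves 4 H2A and H2B pairs of the same chromosome V clusters, all without a ranked summit.

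Summit positions followed no fixed place at the genes. Of the 31 distinct peaks, 16 had the summit between coding genes, 10 in a coding sequence (32.3%, all in histone genes, against 41.7% of the strongest peaks of coding genes), 3 in another exon and 2 in an intron. For 29 of the 50 genes the summit was before the start and for 21 it was past it, with a median distance of 452.5 bp, near the 475 bp of all coding genes. Gene models give a 5′ UTR for only 7 of the 72 genes, so for most of them the start used here is the start codon.

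Histone promoters share sequence that other promoters seldom have. Words were searched on both strands in the 300 bases from 250 before to 50 after each start. The word GGGACACA was in 43 of the 72 histone promoters, or 28 of the 51 that differ in sequence (54.9%), against 81 of 19901 other promoters (0.407%). This word is among the 8-base words most often shared by the spacers of these same genes and was taken up with earlier results of these data known, so its count is a description. The promoters of a head-to-head pair overlap across their spacer, so 1 occurrence often counts for both genes, and the different promoters are not separate observations. Counted once per spacer, the word was in 13 of the 21 different ones, among them that of his-50 and his-49 and not that of his-2 and his-1. By type it was in 11 of 17 H2A, 10 of 16 H2B, 9 of 15 H3 and 11 of 16 H4 promoters and in that of his-24, but in 1 of 5 H3.3 promoters. The longer word CTGCGGGGACACA, obtained by extending GGGACACA to the left while at least 50% of the different histone promoters with it held the longer word, was chosen after the promoters had been seen. It was in 22 histone promoters, or 16 of the 51 different ones, and in 2 of the 19901 others (0.01%). It contains GGGACACA, so the counts overlap. TATAAA, the TATA box, was in 47 of the 72 promoters, or 32 of the 51 different ones (62.7%), against 37.8% of the others. GAGAGA was in 33, or 22 of the 51 (43.1%), against 21.7%. AGGTCA, a core sequence bound by many nuclear receptors, was in 2 of the 72, or 2 of the 51 (3.92%), against 8.29%. A count of 2 gives no firm difference.

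The peaks held these words less uniformly. Of the 31 distinct peaks, 5 held GGGACACA, against 0.485% of the strongest peaks of coding genes: those of his-37, his-5 with his-6, his-67 with his-68, his-17 with his-18, and his-3. The same 5 held CTGCGGGGACACA, which was in 6 of the 16081 strongest peaks of coding genes, histone peaks included. Their signals ran from 29.96 at his-3 to 81.07 at his-37, across most of the histone range. The his-1 peak, over the coding sequence, held none of GGGACACA, TATAAA or AGGTCA, and AGGTCA was in none of the 31 peaks, against 7.35%. TATAAA was in 11 of the 31 (20.6% of coding peaks) and GAGAGA in 7 (15.5%). A word that is present is a description of the sequence and not a binding site.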

How the data were processed

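The joint and single-replicate peak lists of NHR-120::GFP ChIP-seq from 2 biological replicates (1 group) were used, 8 lists in all. Per the deposited file descriptions the assembly is ce11, both replicates' alignments went into the joint lists, and 1 alignment into each replicate list. Every list also had 1 further input, and each thresholded list 1 more. What these inputs are, and the aligner and peak caller, is not given in the sources used here. Deposited lists give the authors' signal value per peak on an unnamed scale, its −log10 q value, a summit offset and, in the ranked lists, the −log10 of the global IDR. Joint and replicate signals were not compared with each other. Depth is unknown, and the number of peaks limits the precision.

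Genes and transcript starts came from Ensembl release 115. It gives only 50 different symbols to the 72 members, so 72 unique RefSeq symbols were matched by WormBase identifier. Histone types came from RefSeq product names, and 70 of 72 matched the types listed by hand. A gene was given every peak with its summit within 1 kb of a transcript start, and the highest signal was kept. The named genes were those in a thresholded list, the strongest of each type and cluster, the lowest of each type, and the single-copy and replacement genes. Repeated sequence was the share of words of 30 bases found more than once in the nuclear genome on either strand, and this count was tested on simulated sequence. Genes of tRNA, rRNA, microRNA, snRNA and snoRNA that start within 1 kb of a summit were counted as near short RNA genes. Members and lists were chosen with earlier results of these data known, and the longer promoter word and the split at 50% and 90% repeated words were added after the data were seen. Counts and medians stand beside those over all protein-coding genes, with no test. Python 3.11.15, numpy 2.4.6 and pandas 2.3.3 were used.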

Additional observations from a re-analysis of the deposited data

How the results depend on the processing

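The count of histone genes with a thresholded summit was 3 and rose to 6 with a window of 2 kb (adding his-3, his-35 and his-41). The distinct peaks stayed at 2 in that window. In the upper 50% of the list by signal the count was 1, with 1 distinct peak. In the lists thresholded within a single replicate, without replicate 1 or without replicate 2, it ranged from 0 to 0. With each peak given only to its nearest start, the 3 genes became 2. The conservative count of 5 became 11 at 2 kb and 3 with the nearest start only. Genes with a ranked summit numbered 37 to 57 under the 4 alternatives, against 50. The median signal was 36.17 to 43.76 in joint lists. In the single replicates' ranked lists, whose values are on their own scale, it ranged from 23.59 to 25.14. The repeated share of the peaks fell from 31.91% to 11.16% for words of 50 bases and to 0 for 100 bases, by the construction of longer words. Clusters numbered 18 to 20 at gaps of 20 kb and 5 kb. No paired analysis was possible because the series has 1 group. Depth is unknown, so the lists cannot show whether a missing peak reflects few reads, and 2 replicates give no measure of spread beyond their 2 values.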

Other observations

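Histone genes outside the his- names had values of the same order. Of 12 genes for linker and variant histones, 9 had a ranked summit within 1 kb, where 89.1% of all protein-coding genes had one, with a median signal of 44.37. The linker histone gene hil-3 (68.86) was in the main thresholded list and not in the conservative one. The next were cpar-1, a relative of the centromeric H3 (59.19), hil-6 (57.58) and hil-5 (50.24), while hcp-3, the centromeric H3 itself, had 32.68 and htz-1, the H2A.Z gene, 33.74. No ranked summit was found for hil-2, hil-8 or htas-1.

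Of 21 genes for histone chaperones and for mRNA 3′ end processing, not all particular to histone mRNAs, 19 had a ranked summit. This share was near that of all coding genes, and the median of 33.95 was near their 34.43. The chaperone genes lin-53 (69.59) and nap-1 (66.34) were in the main list and not in the conservative one. The ASF1 homolog unc-85 had 58.27 and cdl-1, which encodes the stem-loop binding protein of histone mRNAs, had 43.06, both outside the lists. Of 22 replication genes, 21 had a ranked summit, again near the share of all coding genes, with a median of 34.73. Of these, rpa-2, a subunit of the single-strand DNA binding complex, had 253.6, the highest value of any protein-coding gene, and was in both lists. The sliding clamp gene pcn-1 had 72.66 with a global IDR of 0.0236 and was in neither list, and the cyclin E gene cye-1 had 62.56 and was in neither. These counts, 1, 2 and 1 gene in the main list, stand beside 1.72% of all protein-coding genes.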
